A study of Mus musculus with 12 samples.

Results

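Collagens, laminins and integrins are the matrix chains and matrix receptors described here, in RNA libraries of mouse hypothalamic neurospheres treated with a glucocorticoid or with vehicle. A locus of the deposited expression table was taken when it was annotated as protein coding and its name began with Col and a digit, with Lama, Lamb or Lamc and a digit, or with Itga or Itgb. This rule found 88 of 40597 loci, which carry 86 different gene names because Itgae and Itgb1bp1 each stand in more than 1 row. By family these were 44 collagen chains, 11 laminin chains, 27 integrin chains and 6 loci that match by name only, such as Itgb1bp1, which encodes a protein that binds an integrin tail.

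The cultures were neurospheres, floating clusters of neural stem and progenitor cells, from the hypothalamus of C57Bl/6 mice at embryonic day 14.5. Cultures at passage 3 were kept for 4 hours with 100 nM dexamethasone, a synthetic agonist of the glucocorticoid receptor, or with an equal volume of its ethanol solvent. The 4 groups were male dexamethasone, male vehicle, female dexamethasone and female vehicle, each with 3 libraries, 12 in all. The labels name no gene modification or selection of cells, and they call the libraries of a group biological replicates without saying whether these came from separate litters or cultures, so p-values measure only the spread between these libraries.

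Collagens are helices of several chains wound around each other, and they form fibrils, sheet-like networks or transmembrane proteins depending on the chain. Laminins are cross-shaped trimers of an alpha, a beta and a gamma chain, and together with collagen IV they build basement membranes. Integrins pair an alpha with a beta chain and tie this matrix to the cytoskeleton. In the embryonic brain, laminin at the ventricular and pial surfaces and laminin-binding integrins on radial glia help to anchor neural stem cells and to hold them in their niche.

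The authors deposited FPKM, which count fragments relative to the length of the transcript and the size of the library, so levels can be set beside each other between genes per length. Tests used limma on log2(FPKM + 1) over the 14931 loci that averaged 1 FPKM or more, and a locus was called at a Benjamini-Hochberg adjusted p under 0.05 over all of them. Fold changes are dexamethasone over vehicle on this scale, which understates changes of low genes. Genes are placed on GRCm38 by the GENCODE M21 annotation, with positions counted from 1.

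Per library, 13755 to 14826 loci reached 1 FPKM, and the members took 0.135% to 0.184% of the FPKM of protein-coding loci. Loci without a gene name took 11.6% to 75.0% of all FPKM, with the highest shares in male vehicle library 3 (75.0%) and male dexamethasone library 2 (53.1%). Ddx3y on the Y chromosome stood at 16.6 to 22.6 FPKM in male libraries, while its highest female value was 0.0397 FPKM. The Xist locus, marking inactive X chromosomes, stood at 136 to 328 FPKM in female libraries, at 14.1 FPKM in male dexamethasone library 2, at 3.04 FPKM in male vehicle library 2 and at no more than 0.0466 FPKM in the other male libraries. Leaving out each of the libraries that stand apart left 0 members called in each effect of dexamethasone, as with all 12. The label of the cultures was checked with 13 neural stem cell markers, all of which passed 1 FPKM, with Fabp7, a lipid carrier of radial glia, highest at 3503 FPKM. The summed level of 12 microglial and leukocyte markers was 1.03 to 2.71 FPKM in dexamethasone and 1.14 to 3.61 FPKM in vehicle libraries, and that of 9 matched endothelial markers 1.38 to 5.28 and 2.15 to 5.57 FPKM. The sum of the 13 matched mural, fibroblast and meningeal markers was higher, at 33.7 to 53.6 FPKM in dexamethasone and 27.2 to 62.7 FPKM in vehicle libraries. Of these markers 5 passed 1 FPKM, led by Acta2 at 27.9 FPKM. Another 5 averaged under 0.1 FPKM, among them the fibroblast genes Lum (0 FPKM) and Dcn (0.00261 FPKM). In bulk RNA, fewer cells of a type and less RNA per cell cannot be told apart.

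Of the 88 members, 33 had a mean of at least 1 FPKM and were tested, among them 13 collagen, 6 laminin and 11 integrin chains and 3 loci matched by name only. The other 55 were not tested. Of these, 26 averaged under 0.1 FPKM and 29 between 0.1 and 1 FPKM. Just inside the threshold were Col4a2 at 1.23 and Itga8 at 1.30 FPKM, and just outside were Col9a1 at 0.997 and Itgae at 0.836 FPKM.

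**Figure D1:**
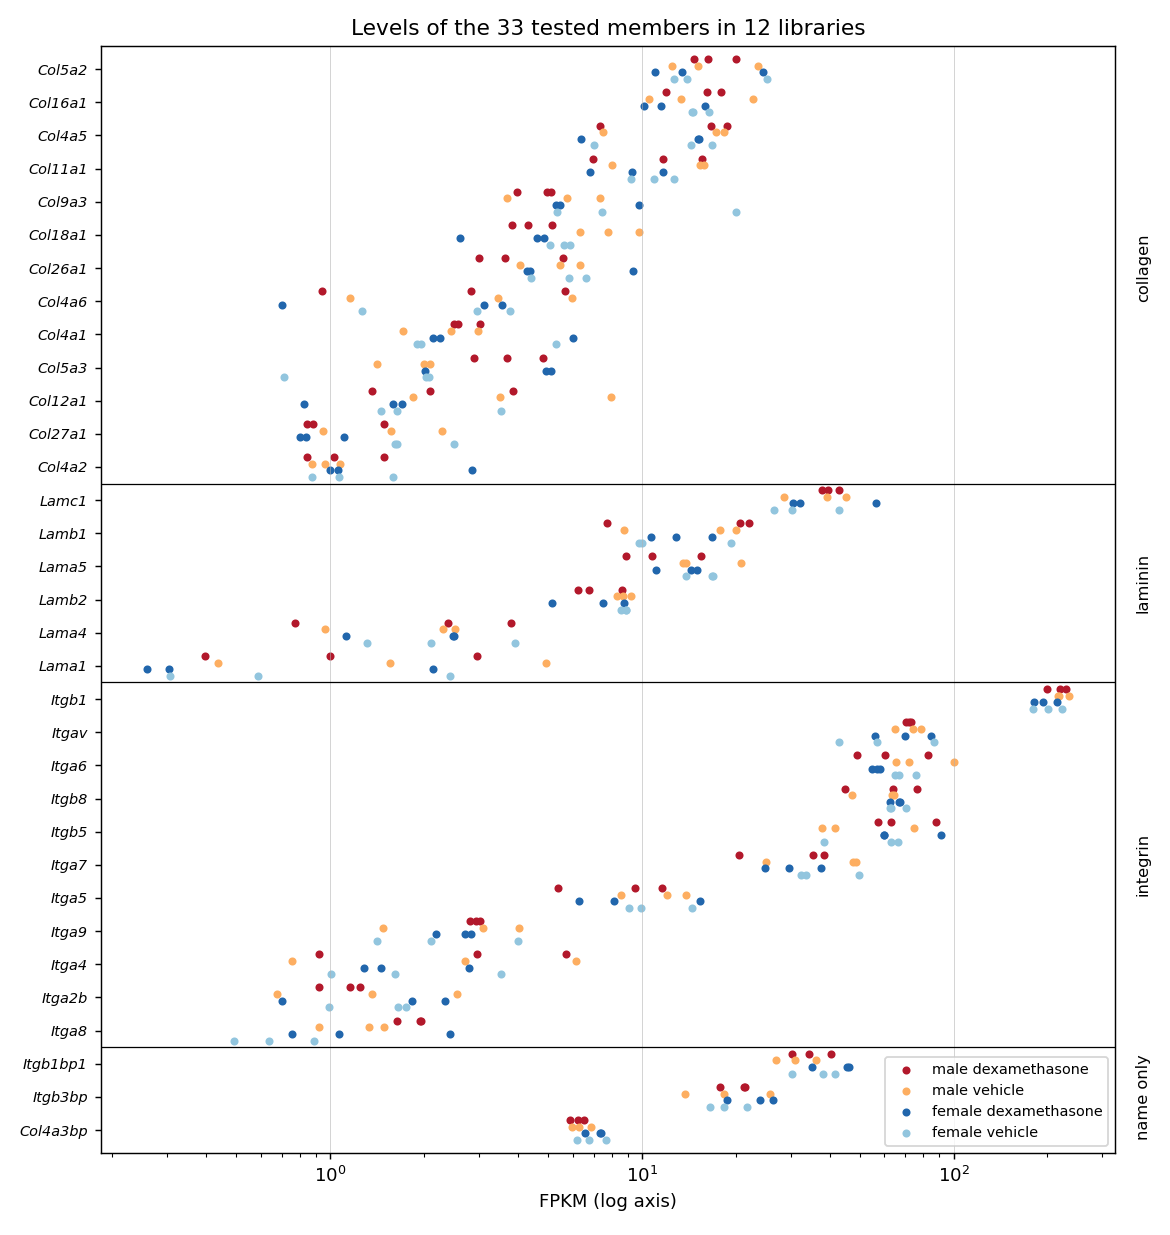
FPKM on a log axis of the 33 tested members in each of the 12 libraries, by family and in order of mean level within a family. Each point is a library and colours mark the 4 groups. Itgb1 is the highest member at a mean of 209 FPKM, and the points of dexamethasone and vehicle libraries overlap in nearly every line.

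Fibril-forming collagens were present as minor fibril chains. Col5a2 (chromosome 1, 45374321 to 45503282), a chain of collagen V that helps to start fibrils, was the highest collagen. It had 20.1, 16.4 and 14.7 FPKM in male dexamethasone, 23.7, 12.5 and 15.1 in male vehicle, 24.4, 11.0 and 13.5 in female dexamethasone and 25.2, 12.7 and 13.9 FPKM in female vehicle libraries. The groups overlap, and library 1 of each group was the highest of its group. Col11a1, a related chain of collagen XI, averaged 11.2 FPKM over the 12 libraries. The chains of collagen I, the main fibril of skin, bone and meninges, were low, Col1a1 at 0.663 and Col1a2 at 0.0266 FPKM, and Col3a1 of collagen III was at 0.0417 FPKM. Of 11 fibrillar chains 4 were tested.

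Among the 6 chains of collagen IV, the network of basement membranes, 4 were tested. Col4a5 (chromosome X, 141475385 to 141689234), known from Alport disease of the kidney, had 18.8, 16.6 and 7.37 FPKM in male dexamethasone, 18.4, 17.3 and 7.48 in male vehicle, 15.1, 6.36 and 15.2 in female dexamethasone and 16.8, 7.05 and 14.4 FPKM in female vehicle libraries. Male libraries 3 and female libraries 2 were the low ones under either treatment. Col4a6, its neighbour on the X chromosome, averaged 2.95 FPKM and was lowest in the same 4 libraries. Col4a1 and Col4a2, the chains found in most basement membranes, averaged 2.90 and 1.23 FPKM. The lowest library of Col4a5 (6.36 FPKM) was above the highest of Col4a1 (6.02 FPKM). Col4a3 and Col4a4, typical of kidney and lung, stood at 0.147 and 0.0149 FPKM.

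Col4a1 and Col4a2 (chromosome 8, 11198423 to 11312826 on the minus strand and 11312805 to 11449287 on the plus strand) overlap head to head, and their promoters are shown because they share bases. The windows run from 250 bases before to 50 after each RefSeq start on GRCm38.p6 and are written 5′ to 3′ on the gene's strand. Capitals mark the 78 bases, chr8:11312777-11312854, that lie in both windows, read on opposite strands.
Col4a1, chr8:11312777-11313076, minus strand: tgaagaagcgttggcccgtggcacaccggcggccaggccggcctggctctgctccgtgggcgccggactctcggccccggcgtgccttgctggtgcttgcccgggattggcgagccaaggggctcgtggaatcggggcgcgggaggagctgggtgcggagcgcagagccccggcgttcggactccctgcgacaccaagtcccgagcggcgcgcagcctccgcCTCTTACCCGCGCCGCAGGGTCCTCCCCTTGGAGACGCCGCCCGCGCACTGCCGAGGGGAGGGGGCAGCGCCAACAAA
Col4a2, chr8:11312555-11312854, plus strand: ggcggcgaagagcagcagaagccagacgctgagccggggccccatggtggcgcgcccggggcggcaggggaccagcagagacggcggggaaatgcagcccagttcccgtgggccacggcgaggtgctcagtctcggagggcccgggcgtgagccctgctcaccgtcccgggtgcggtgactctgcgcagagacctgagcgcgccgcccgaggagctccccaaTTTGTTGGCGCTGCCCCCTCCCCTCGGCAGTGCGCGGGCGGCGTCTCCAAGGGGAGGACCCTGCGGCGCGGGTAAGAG
Col4a1 was highest in female libraries 1 at 6.02 FPKM with dexamethasone and 5.30 FPKM with vehicle, and at 1.71 to 3.01 FPKM in the other 10. Col4a2 was likewise highest in those libraries, at 2.86 and 1.59 FPKM. The RNA kit was a stranded one, but no source used here gives the strand setting of the counting. Whether fragments of overlapping genes on opposite strands were kept apart is therefore unknown.

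Fibril-associated collagens, which sit on the surface of fibrils, were led by Col16a1 (chromosome 4, 130047840 to 130099283). It had 16.2, 11.9 and 17.9 FPKM in male dexamethasone, 22.7, 10.5 and 13.4 in male vehicle, 16.0, 11.5 and 10.1 in female dexamethasone and 16.4, 14.5 and 14.6 FPKM in female vehicle libraries. Col9a3 and Col12a1 averaged 7.02 and 2.62 FPKM, and the other 6 chains of this class were not tested. Col18a1, a collagen of basement membranes whose end fragment is endostatin, averaged 5.50 FPKM, and Col26a1 5.25 FPKM. No transmembrane collagen, anchoring-fibril collagen or collagen of the VIII and X type passed 1 FPKM, and Col6a1, Col6a2 and Col6a3 of the beaded filaments were at 0.390, 0.0991 and 0.120 FPKM.

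Laminin transcripts were led by a gamma chain. Lamc1 (chromosome 1, 153218922 to 153332786), the gamma chain of most laminins, had 37.9, 39.4 and 42.9 FPKM in male dexamethasone, 28.6, 39.2 and 45.2 in male vehicle, 32.2, 30.6 and 56.5 in female dexamethasone and 30.3, 26.6 and 43.0 FPKM in female vehicle libraries. Libraries 3 were the highest of every group. Lamb1 (chromosome 12, 31265234 to 31329644), an early beta chain, had 7.73, 20.7 and 22.0 FPKM in male dexamethasone, 8.77, 17.8 and 20.0 in male vehicle, 10.7, 12.9 and 16.8 in female dexamethasone and 9.99, 9.81 and 19.4 FPKM in female vehicle libraries. It was again highest in libraries 3 of each group. Lamb2 averaged 7.97 FPKM. Lama5, an alpha chain of epithelial, vascular and neural basement membranes, averaged 14.3 FPKM and made up 79.2% of the summed mean FPKM of the 5 alpha chains. Lama4 and Lama1 averaged 2.18 and 1.44 FPKM, and Lama2 and Lama3 were not tested, at 0.127 and 0.00932 FPKM.

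Integrin chains had the highest single levels of the members. Itgb1 (chromosome 8, 128685654 to 128733200), the beta chain shared by most matrix receptors, had 199.7, 230.1 and 220.1 FPKM in male dexamethasone, 217, 235 and 218 in male vehicle, 193, 181 and 214 in female dexamethasone and 201, 180.3 and 222 FPKM in female vehicle libraries. Its mean was 62.6% of the summed mean FPKM of the 9 beta chains and 1.09 times the sum over all integrin alpha chains (192 FPKM). Itgav (chromosome 2, 83724397 to 83806916), which pairs with several beta chains to bind RGD motifs, had 72.8, 72.1 and 70.2 FPKM in male dexamethasone, 64.7, 78.5 and 74.3 in male vehicle, 70.1, 55.8 and 84.4 in female dexamethasone and 43.0, 56.6 and 86.8 FPKM in female vehicle libraries. Its groups overlap in both sexes. Of its partners, Itgb8, which activates latent TGF-beta, averaged 62.7 FPKM and Itgb5, of the vitronectin receptor, 61.7 FPKM, while Itgb3 and Itgb6 were at 0.207 and 0.0177 FPKM. Itga6 and Itga7, the alpha chains of laminin receptors, averaged 67.2 and 35.2 FPKM, and their relative Itga3 was at 0.278 FPKM. Itga5, of the fibronectin receptor, averaged 10.4 FPKM. The 3 collagen-binding alpha chains were not tested, Itga1 being highest at 0.415 FPKM. None of the 6 loci of leukocyte alpha chains was tested either, and Itgb2 and Itgam, which white blood cells and microglia carry, were at 0.0716 and 0.00781 FPKM.

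The comparison of dexamethasone with vehicle asks whether any of these transcripts changes within 4 hours of the glucocorticoid. Averaged over the sexes and with no term for the replicate number, 0 of the 33 tested members were called by limma, against 1.53% of all tested loci. Those 229 calls were 171 higher and 58 lower with dexamethasone, or 128 and 86 when each library was scaled to the same FPKM sum over protein-coding loci. At an unadjusted p under 0.05 there were 5 members (15.2%), against 13.6% of all loci: Col18a1, Col27a1 and Lamb2 lower with dexamethasone and Col5a3 and Itga8 higher. The smallest adjusted p was 0.108, that of Col18a1. Estimates lay between -0.56 and 0.84, with 13 above 0 and 20 below 0. The median was -0.04, against -0.01 over all tested loci, of which 51.5% were below 0. Members were estimated less precisely than most loci, with a median standard error of 0.21 against 0.13. When the replicate number was added as a block, 5 members (15.2%) were called, against 5.38% of all loci, as given below.

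By family, 3 of 13 collagens had estimates above 0 and 10 below 0 (median -0.14), 2 of 6 laminins were above and 4 below (median -0.13), and 5 of 11 integrins were above and 6 below (median -0.00). None was called without the replicate block. The signs of collagens kept these counts under both other scalings tried, while laminins had 3 above and 3 below 0 after quantile normalization and 1 above and 5 below with equal protein-coding sums. Within males 0 members were called, against 0.315% of all loci, and at an unadjusted p under 0.05 there were 2, Col18a1 and Col5a3, against 6.38%. Within females 0 were called, against 0.482%, and 2 were at an unadjusted p under 0.05, Col27a1 and Col5a3, against 8.02%.

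**Figure D2:**
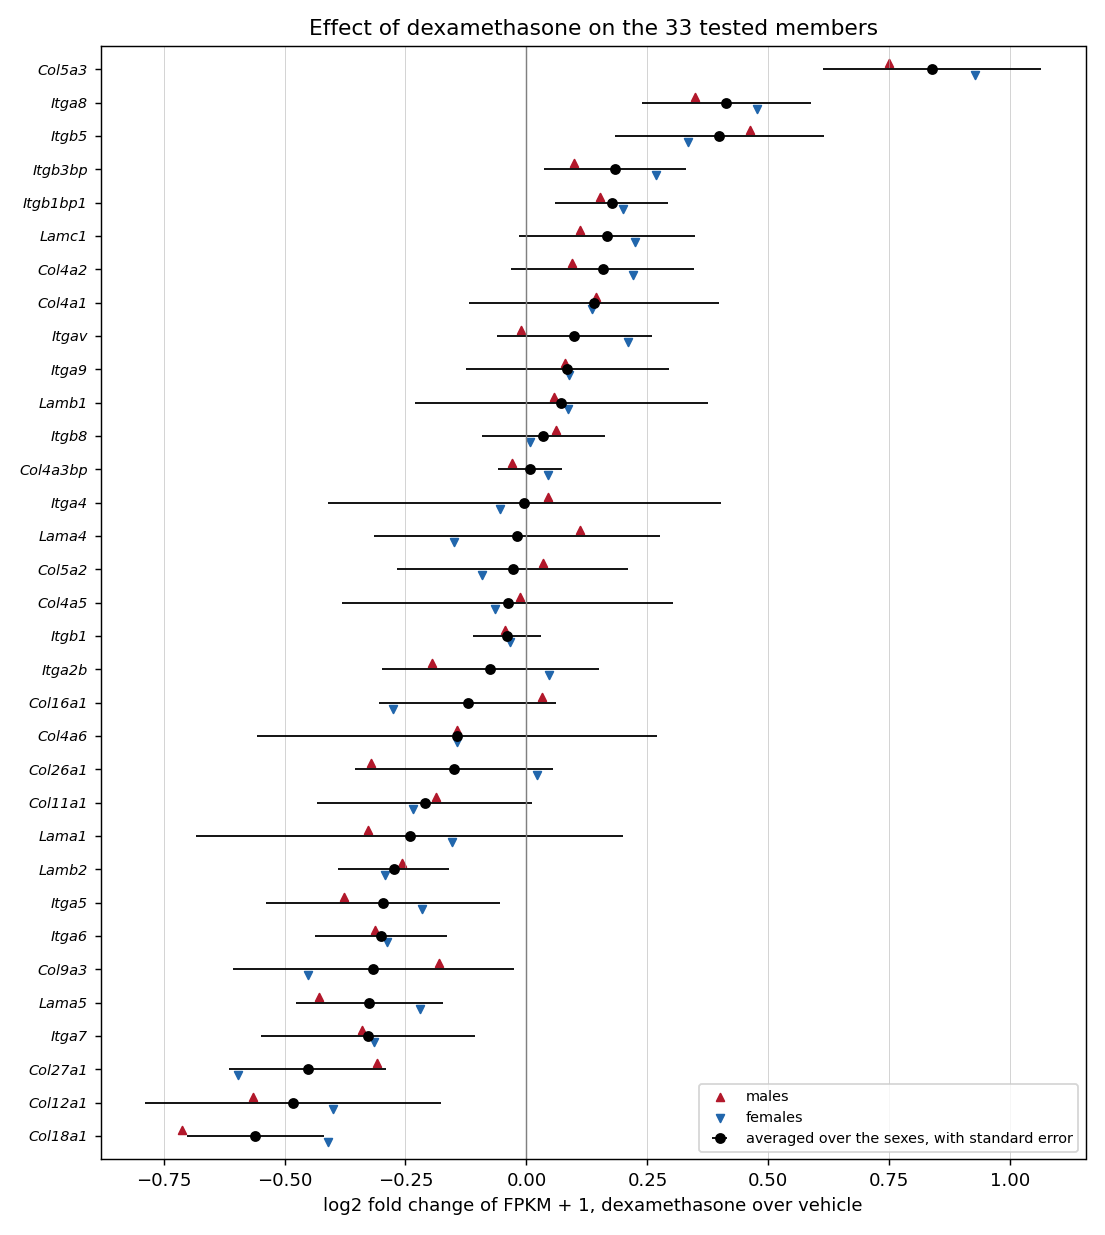
Log2 fold change of FPKM + 1, dexamethasone over vehicle, for the 33 tested members in order of the averaged effect. Circles are the effect averaged over the sexes with its standard error, and triangles the effects in males (upward) and females (downward). Col5a3 stands apart at 0.84 and Col18a1 is lowest at -0.56, while 19 members lie within 0.2 of 0.

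Col5a3 (chromosome 9, 20770050 to 20815067), the least widespread chain of collagen V, had the largest difference. It had 4.81, 3.71 and 2.89 FPKM in male dexamethasone libraries, against 2.09, 2.01 and 1.41 FPKM in male vehicle. In females it had 5.10, 2.01 and 4.94 FPKM with dexamethasone, against 2.08, 0.711 and 2.03 FPKM with vehicle. The male groups do not overlap, while in females dexamethasone library 2 lay within the range of the vehicle libraries. Each dexamethasone library was above the vehicle library with its own number. The averaged log2 fold change was 0.84 (SE 0.23, adjusted p = 0.135), and with each library left out in turn it was 0.70 to 1.00, with adjusted p from 0.0467 (without female dexamethasone library 2) to 0.284.

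Col18a1 (chromosome 10, 77052178 to 77166548) was the lowest in the order of estimates. It had 5.16, 4.33 and 3.84 FPKM in male dexamethasone libraries, against 9.79, 7.78 and 6.35 FPKM in male vehicle, and 2.62, 4.86 and 4.60 FPKM in female dexamethasone, against 5.90, 5.08 and 5.64 FPKM in female vehicle libraries. It was the single tested member whose dexamethasone libraries all lay below the vehicle libraries in both sexes, a pattern held by 1.39% of all tested loci, and no tested member had the opposite pattern, held by 2.08%. The log2 fold change was -0.56 (SE 0.14, adjusted p = 0.108). Slc19a1, on the other strand, overlaps this gene.

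The promoters of Col5a3, Col18a1 and Lama5 are shown because these genes had the largest differences or were called with the replicate number as a block. Itga6, Itga7 and Itgb1bp1 were also called with the block and are not shown. For Itga6 and Itga7 no window was found. Capitals mark GC boxes, searched as GGGCGG or CCGCCC, to which Sp1-type factors bind. RefSeq gives Col18a1 more than 1 start.
Col5a3, chr9:20815018-20815317, minus strand: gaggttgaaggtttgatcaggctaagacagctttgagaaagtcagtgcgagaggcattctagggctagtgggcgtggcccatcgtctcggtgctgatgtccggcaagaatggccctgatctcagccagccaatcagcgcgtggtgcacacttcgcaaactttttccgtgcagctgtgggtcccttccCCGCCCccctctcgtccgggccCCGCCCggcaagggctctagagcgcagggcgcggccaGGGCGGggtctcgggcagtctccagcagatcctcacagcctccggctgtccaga
Col18a1 at the upstream start, chr10:77166481-77166780, minus strand: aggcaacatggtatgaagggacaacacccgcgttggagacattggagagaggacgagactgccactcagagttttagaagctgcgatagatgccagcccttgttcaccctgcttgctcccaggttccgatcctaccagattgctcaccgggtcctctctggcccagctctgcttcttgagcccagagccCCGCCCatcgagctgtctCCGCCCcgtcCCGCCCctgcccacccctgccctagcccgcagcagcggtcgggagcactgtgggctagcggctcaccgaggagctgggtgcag
Col18a1 at the downstream start, chr10:77113656-77113955, minus strand: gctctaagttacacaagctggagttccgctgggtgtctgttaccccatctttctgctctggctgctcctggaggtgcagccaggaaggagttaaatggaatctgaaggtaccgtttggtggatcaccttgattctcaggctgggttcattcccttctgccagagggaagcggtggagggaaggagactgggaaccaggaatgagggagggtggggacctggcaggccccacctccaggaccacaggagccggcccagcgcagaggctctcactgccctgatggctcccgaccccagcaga
Lama5, chr2:180225810-180226109, minus strand: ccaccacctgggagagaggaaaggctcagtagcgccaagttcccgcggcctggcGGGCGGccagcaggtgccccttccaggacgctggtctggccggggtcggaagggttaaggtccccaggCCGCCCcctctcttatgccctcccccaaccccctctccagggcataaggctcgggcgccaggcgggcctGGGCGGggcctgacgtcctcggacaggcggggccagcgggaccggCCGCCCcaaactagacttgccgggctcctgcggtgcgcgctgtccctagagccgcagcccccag
The windows hold 3 GC boxes for Col5a3, 3 and 0 for the starts of Col18a1, and 4 for Lama5. The letters AGAACA or TGTTCT, which glucocorticoid receptor sites carry as an inverted repeat, are in none of the 4 windows. Windows were found for 23 of the 33 tested members, 24 windows in all. Those letters are in 2 of the 24 (8.33%), at Itgb1 and Itgb3bp, against 19.0% of all 32851 promoters in the table. GC boxes are in 16 of the 24 (66.7%), against 35.7%, and CCAAT or ATTGG in 9 (37.5%), against 37.4%. Motifs were counted on both strands with overlaps kept. The 24 windows belong to members at 1 FPKM or more, while the 32851 promoters were not chosen by level. The shares are therefore of unlike sets, and no conclusion is drawn from them.

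Other collagens with large estimates were low and variable. Col12a1 (chromosome 9, 79598991 to 79718831), a fibril-associated chain, had 1.36, 2.09 and 3.87 FPKM in male dexamethasone, against 1.85, 3.50 and 7.97 FPKM in male vehicle, and 0.826, 1.60 and 1.70 FPKM in female dexamethasone, against 1.64, 1.45 and 3.54 FPKM in female vehicle libraries. The groups overlap in both sexes (log2 fold change -0.48, SE 0.31, adjusted p = 0.520, and -0.68 to -0.26 with each library left out). Col27a1 (chromosome 4, 63214004 to 63334991), a fibrillar chain known from cartilage, had 0.841, 0.884 and 1.49 FPKM in male dexamethasone, against 0.946, 1.56 and 2.28 FPKM in male vehicle, and 0.839, 0.801 and 1.11 FPKM in female dexamethasone, against 1.61, 1.64 and 2.50 FPKM in female vehicle libraries. Its female groups do not overlap and its male groups do (log2 fold change -0.45, SE 0.16, adjusted p = 0.270).

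The laminin-binding integrin alpha chains had estimates below 0. Itga6 (chromosome 2, 71745616 to 71858416), a surface marker of neural stem cells, had 49.0, 60.1 and 82.7 FPKM in male dexamethasone, against 65.2, 72.1 and 99.99 FPKM in male vehicle, and 54.7, 56.8 and 57.9 FPKM in female dexamethasone, against 65.0, 67.0 and 75.9 FPKM in female vehicle libraries. Itga7 (chromosome 10, 128933818 to 128958282), best known as the laminin receptor chain of muscle, had 38.3, 35.3 and 20.5 FPKM in male dexamethasone, against 47.5, 48.5 and 24.9 FPKM in male vehicle, and 37.4, 24.8 and 29.6 FPKM in female dexamethasone, against 49.7, 32.3 and 33.6 FPKM in female vehicle libraries. For both genes every dexamethasone library was below the vehicle library with its own number, while the groups overlap apart from Itga6 in females. The log2 fold changes were -0.30 (SE 0.14, adjusted p = 0.373) for Itga6 and -0.33 (SE 0.22, adjusted p = 0.547) for Itga7, whose estimate was -0.48 to -0.19 with each library left out. Mettl7b, on the other strand, overlaps Itga7.

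In male libraries 3, Itga6 was the highest and Itga7 the lowest of their groups. Summed with Itga3, the laminin-binding alpha chains had 87.7, 95.7 and 103 FPKM in male dexamethasone libraries, against 113, 121 and 125 FPKM in male vehicle. In females the sum was 92.2, 81.8 and 87.6 FPKM with dexamethasone, against 115, 99.9 and 109.9 FPKM with vehicle. The means were 95.6 ± 7.83 FPKM in male dexamethasone and 119.6 ± 6.14 FPKM in male vehicle, and 87.2 ± 5.20 FPKM in female dexamethasone and 108 ± 7.88 FPKM in female vehicle libraries (SD, n = 3 each). The groups of this sum do not overlap in either sex, while neither Itga6 nor Itga7 alone had this pattern in both sexes. Among single tested loci, 1.39% lay lower with dexamethasone in both sexes without overlap. The sum was formed after the values were seen and has no test.

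Their ligand chain Lama5 (chromosome 2, 180176373 to 180225859) had 8.89, 10.8 and 15.4 FPKM in male dexamethasone, against 13.5, 13.8 and 20.8 FPKM in male vehicle, and 15.0, 11.1 and 14.4 FPKM in female dexamethasone, against 16.8, 13.9 and 16.9 FPKM in female vehicle libraries. Every dexamethasone library was below the vehicle library with its own number, and the groups overlap in both sexes. The log2 fold change was -0.33 (SE 0.15, adjusted p = 0.382). Lamc1 and Lamb1, which can join Lama5 in 1 trimer, had estimates of 0.17 (SE 0.18, adjusted p = 0.715, and 0.03 to 0.26 with each library left out) and 0.07 (SE 0.30, adjusted p = 0.940), and Lamb2 had -0.27 (SE 0.11, adjusted p = 0.333).

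**Figure D3:**
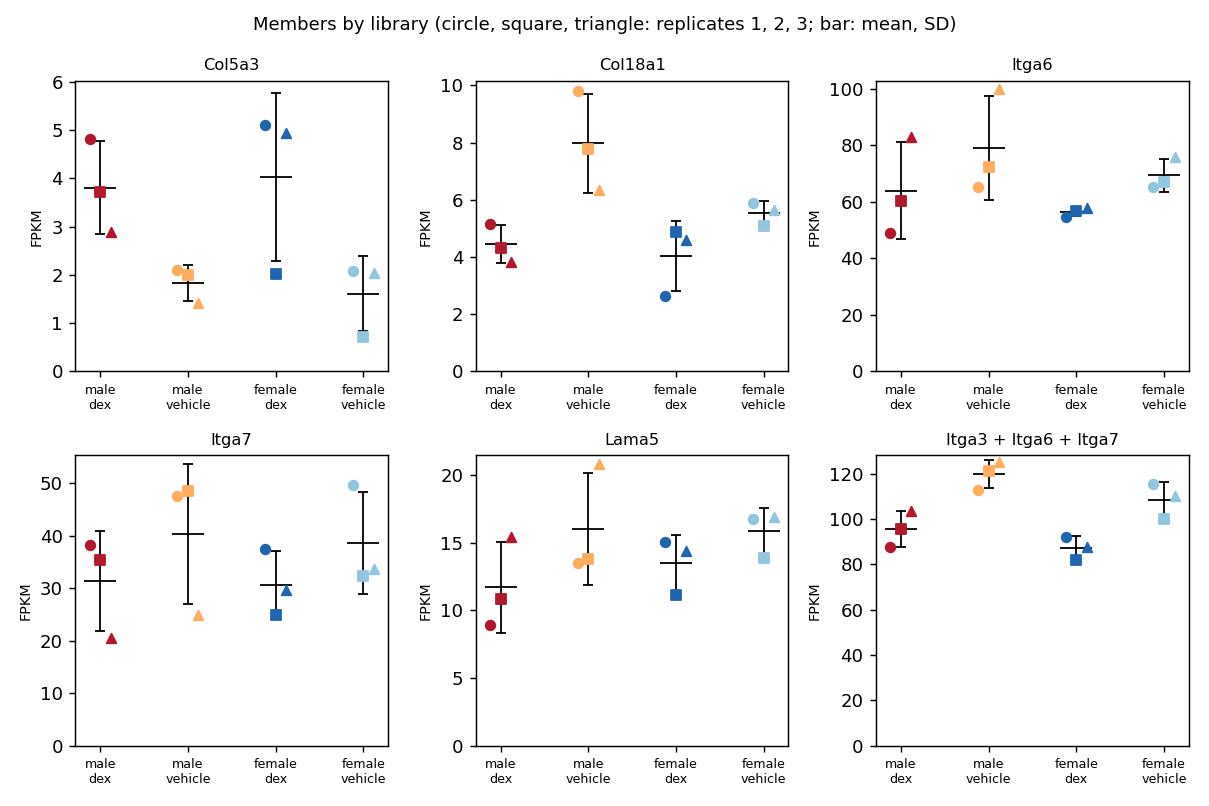
FPKM by library for Col5a3, Col18a1, Itga6, Itga7, Lama5 and the sum of Itga3, Itga6 and Itga7, in male and female dexamethasone and vehicle groups. Circles, squares and triangles are replicates 1, 2 and 3, horizontal bars the group means and error bars the SD (n = 3). Male libraries of the summed chains reach at most 103 FPKM with dexamethasone and at least 113 FPKM with vehicle. The sum was formed after the values were seen and has no test.

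Among the RGD-binding receptors, which bind fibronectin, vitronectin and similar proteins, estimates went either way. Itgb5 (chromosome 16, 33829665 to 33949338) had 57.1, 87.8 and 62.9 FPKM in male dexamethasone, against 41.8, 74.7 and 37.9 FPKM in male vehicle, and 59.8, 60.03 and 91.0 FPKM in female dexamethasone, against 38.5, 66.3 and 63.1 FPKM in female vehicle libraries. The groups overlap in both sexes (log2 fold change 0.40, SE 0.22, adjusted p = 0.447). Itga8 (chromosome 2, 12106632 to 12301922), the nephronectin receptor chain of the mouse kidney, had 1.64, 1.95 and 1.95 FPKM in male dexamethasone, against 0.922, 1.33 and 1.49 FPKM in male vehicle, and 1.07, 0.756 and 2.42 FPKM in female dexamethasone, against 0.886, 0.492 and 0.637 FPKM in female vehicle libraries. Its male groups do not overlap and its female groups do (log2 fold change 0.41, SE 0.17, adjusted p = 0.340). The abundant chains had small estimates, -0.04 for Itgb1 (SE 0.07, adjusted p = 0.835), 0.10 for Itgav (SE 0.16, adjusted p = 0.815) and 0.03 for Itgb8 (SE 0.13, adjusted p = 0.929). Itga5 had -0.30 (SE 0.24, adjusted p = 0.623).

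The loci matched by name only encode no collagen, laminin or integrin chain, and 3 of them were tested. Itgb1bp1 (chromosome 12, 21240825 to 21286284), an inhibitor of integrin beta1 activation, had 40.3, 34.3 and 30.3 FPKM in male dexamethasone, against 36.2, 31.0 and 27.0 FPKM in male vehicle, and 46.3, 45.4 and 35.1 FPKM in female dexamethasone, against 41.7, 38.1 and 30.4 FPKM in female vehicle libraries. Each dexamethasone library was above the vehicle library of its number, and the groups overlap (log2 fold change 0.18, SE 0.12, adjusted p = 0.538). Itgb3bp (chromosome 4, 99765402 to 99929813), a centromere protein also named CENP-R, had 21.5, 17.8 and 21.2 FPKM in male dexamethasone, against 25.7, 18.4 and 13.8 FPKM in male vehicle, and 26.3, 24.0 and 18.7 FPKM in female dexamethasone, against 21.8, 18.3 and 16.6 FPKM in female vehicle libraries, with overlapping groups (log2 fold change 0.18, SE 0.15, adjusted p = 0.616). Genes on the other strand overlap both. Col4a3bp, the ceramide carrier CERT, had 5.90 to 7.41 FPKM with dexamethasone and 5.97 to 7.69 FPKM with vehicle.

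The labels number the replicates without stating what a shared number means, and the fit above did not use the numbers. Within each sex, 12 of 12 libraries correlated best with the same-numbered library of the other treatment, so the numbers may mark pairs. With the number within each sex as a block in limma, 5 of 33 members were called (15.2%), against 5.38% of all loci. Col5a3 (adjusted p = 0.00487) and Itgb1bp1 (adjusted p = 0.0385) were higher with dexamethasone, and Itga6 (adjusted p = 0.0204), Lama5 (adjusted p = 0.0213) and Itga7 (adjusted p = 0.0235) lower. Within males and within females the block left 1 member called, Col5a3 in each, against 0.991% and 1.25% of all loci. The calls of Itgb1bp1 and Lama5 were lost whenever any 1 of the 6 same-numbered pairs was left out, those of Itga6 and Itga7 in 5 of 6 cases, and that of Col5a3 in none. The calls over all loci also fell in those fits, to between 186 and 388 (1.25% to 2.61%). Of the 13 neural stem cell markers tested, 5 were lower with dexamethasone in the blocked fit, and their part in the values of Itga6 was not tested.

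Several members differed widely between libraries of the same treatment. For 9 of the 33 tested members the highest of the 6 vehicle libraries was more than 3 times the lowest. Lama1, the alpha chain of the earliest embryonic laminin, spanned the widest range, with 0.398, 2.95 and 0.999 FPKM in male dexamethasone, 0.438, 4.94 and 1.56 in male vehicle, 0.304, 0.258 and 2.13 in female dexamethasone and 0.306, 0.587 and 2.42 FPKM in female vehicle libraries. It was high in male libraries 2 and female libraries 3 under either treatment. Its vehicle maximum was 16.1 times its minimum. Itga4, of a receptor for fibronectin and VCAM1, had 0.920, 2.96 and 5.70 FPKM in male dexamethasone, 0.754, 2.70 and 6.16 in male vehicle, 1.28, 1.46 and 2.80 in female dexamethasone and 1.61, 1.01 and 3.54 FPKM in female vehicle libraries, a vehicle ratio of 8.17. It was highest in libraries 3 of each group. The other 7 were Col12a1, Col9a3, Col4a6, Lama4, Itga2b, Col4a1 and Itga8, with ratios of 3.03 to 5.48. Their source was not tested.

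**Figure D4:**
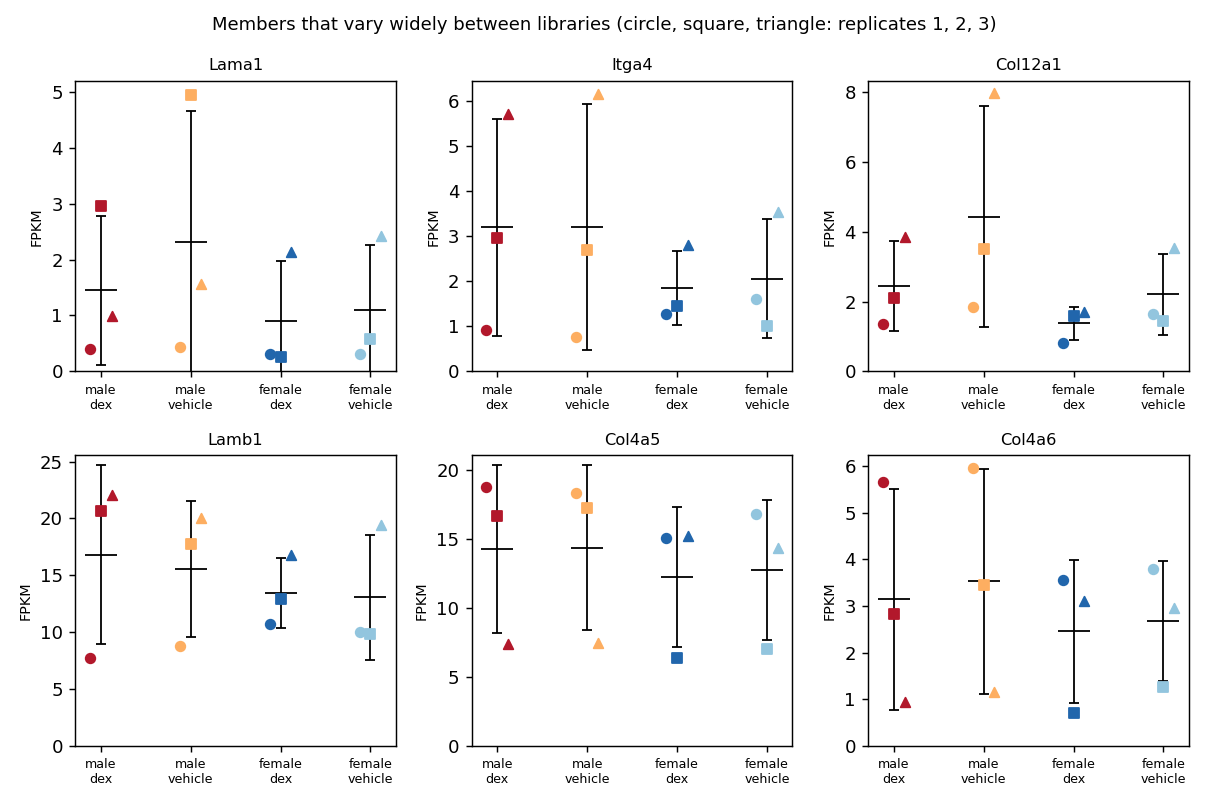
FPKM by library of Lama1, Itga4, Col12a1, Lamb1, Col4a5 and Col4a6 in the 4 groups. Circles, squares and triangles are replicates 1, 2 and 3, horizontal bars the means and error bars the SD (n = 3), with axes that start at 0. Col4a5 lies between 6.36 and 7.48 FPKM in male libraries 3 and female libraries 2 and at 14.4 FPKM or more in the others, while Lama1 has other high libraries.

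The interaction asks whether the effect differs between the sexes, as the female minus the male log2 fold change. It called 0 of 33 members, against 0.0335% of all loci, and 0 were at an unadjusted p under 0.05, against 1.47%. Estimates lay between -0.31 (Col16a1) and 0.34 (Col26a1), with a median standard error of 0.42, so differences of that size were not detectable in this fit. With the replicate block the standard error was 0.25 for Col16a1, 0.41 for Col26a1, 0.08 for Itga6 and 0.09 for Itga7, and 0 members were called. The difference between female and male vehicle cultures also called 0 members, against 0.0737% of all loci, with 0 at an unadjusted p under 0.05, against 4.88%. Female minus male estimates ran from -0.66 for Col12a1, with 2.21 ± 1.15 FPKM in female and 4.44 ± 3.16 FPKM in male vehicle libraries (SD, n = 3 each, adjusted p = 0.892), to 0.69 for Col9a3, with 10.9 ± 7.91 FPKM in female and 5.60 ± 1.83 FPKM in male vehicle libraries (adjusted p = 0.892). Col18a1 in vehicle was lower in every female library (5.08 to 5.90 FPKM) than in every male library (6.35 to 9.79 FPKM), with an adjusted p of 0.892. Itga8 was too (0.492 to 0.886 against 0.922 to 1.49 FPKM, adjusted p = 0.892). The share of all loci with such a pattern was not counted, so nothing is concluded from it.

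Genes around the family were described from lists chosen with results of these data known. Of 18 tested genes of collagen processing and crosslinking, such as the prolyl hydroxylase subunit P4hb at 262 FPKM, 0 were called (median log2 fold change -0.08). Of 21 tested basement membrane and matrix partners 0 were called (median -0.10, with the galectin Lgals1 highest at 738 FPKM), and of 16 non-integrin matrix receptors 0 (median -0.12, with the tetraspanin Cd81 highest at 534 FPKM). Of 27 integrin adaptors and adhesion signalling genes 3 rose and 0 fell (median -0.06), against 1.53% called over all loci, and the kinase Fyn was highest at 198 FPKM. These lists and those below were chosen with the results known, so no count in them measures enrichment over that share. Of 19 matrix proteases and inhibitors 2 rose and 0 fell (median -0.04), with the protease inhibitor Serpine2 highest at 379 FPKM.

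Fam107a, which encodes an actin-binding protein (chromosome 14, 8296274 to 8318023), had 38.1, 23.9 and 18.7 FPKM in male dexamethasone, against 0.127, 0.0541 and 0.343 FPKM in male vehicle, and 41.3, 26.7 and 23.1 FPKM in female dexamethasone, against 0.0539, 0.0365 and 0.0744 FPKM in female vehicle libraries. It rose by 4.69 in log2 units (SE 0.18, adjusted p = 8.19e-07). Ptk2b, the focal adhesion kinase relative Pyk2 (chromosome 14, 66153257 to 66281052), had 5.58 to 14.2 FPKM in dexamethasone and 0.307 to 1.84 FPKM in vehicle libraries and rose by 2.59 (SE 0.23, adjusted p = 3.77e-04). Nedd9, a docking protein of focal adhesions (chromosome 13, 41309581 to 41487362), had 10.5 to 24.0 FPKM in dexamethasone and 2.77 to 5.35 FPKM in vehicle libraries and rose by 1.97 (SE 0.19, adjusted p = 6.77e-04). For these genes the dexamethasone and vehicle libraries do not overlap.

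The matrix protease gene Adamts9 (chromosome 6, 92772699 to 92943492), whose product cleaves the proteoglycans versican and aggrecan, had 15.1, 15.3 and 15.8 FPKM in male dexamethasone, against 4.71, 5.73 and 6.28 FPKM in male vehicle, and 17.0, 11.4 and 15.4 FPKM in female dexamethasone, against 4.39, 3.08 and 6.63 FPKM in female vehicle libraries. It rose by 1.40 (SE 0.15, adjusted p = 0.00115). Timp4, an inhibitor of matrix metalloproteinases (chromosome 6, 115241892 to 115252205), had 40.4 to 78.3 FPKM in dexamethasone and 21.0 to 44.7 FPKM in vehicle libraries and rose by 0.83 (SE 0.16, adjusted p = 0.0384). That call was lost in 9 of 21 alternatives, with adjusted p up to 0.105. Syn2, on the other strand, overlaps Timp4.

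Of the 13 neural stem cell markers 2 fell, Msi1 by 0.64 (SE 0.10, adjusted p = 0.0151) and Nr2e1 by 0.57 (SE 0.12, adjusted p = 0.0475, lost in 13 of 21 alternatives with adjusted p up to 0.125), and the others were not called. With the replicate block 5 of 13 were lower, against 5.38% of all loci called in either direction, among them Sox2 (adjusted p = 0.0370), Nes (adjusted p = 0.0324) and Sox9 (adjusted p = 0.0430). Of 8 known glucocorticoid-induced genes 7 rose and Sgk1 did not pass the test. Their summed level was 240 to 387 FPKM in dexamethasone and 66.7 to 88.8 FPKM in vehicle libraries, and the median log2 fold change was 1.96. The tested markers of microglia (1 of 12), endothelium (1 of 10) and mural or fibroblast cells (5 of 14) were not called, and the part of such cells in the values of the members was not tested.

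**Figure D5:**
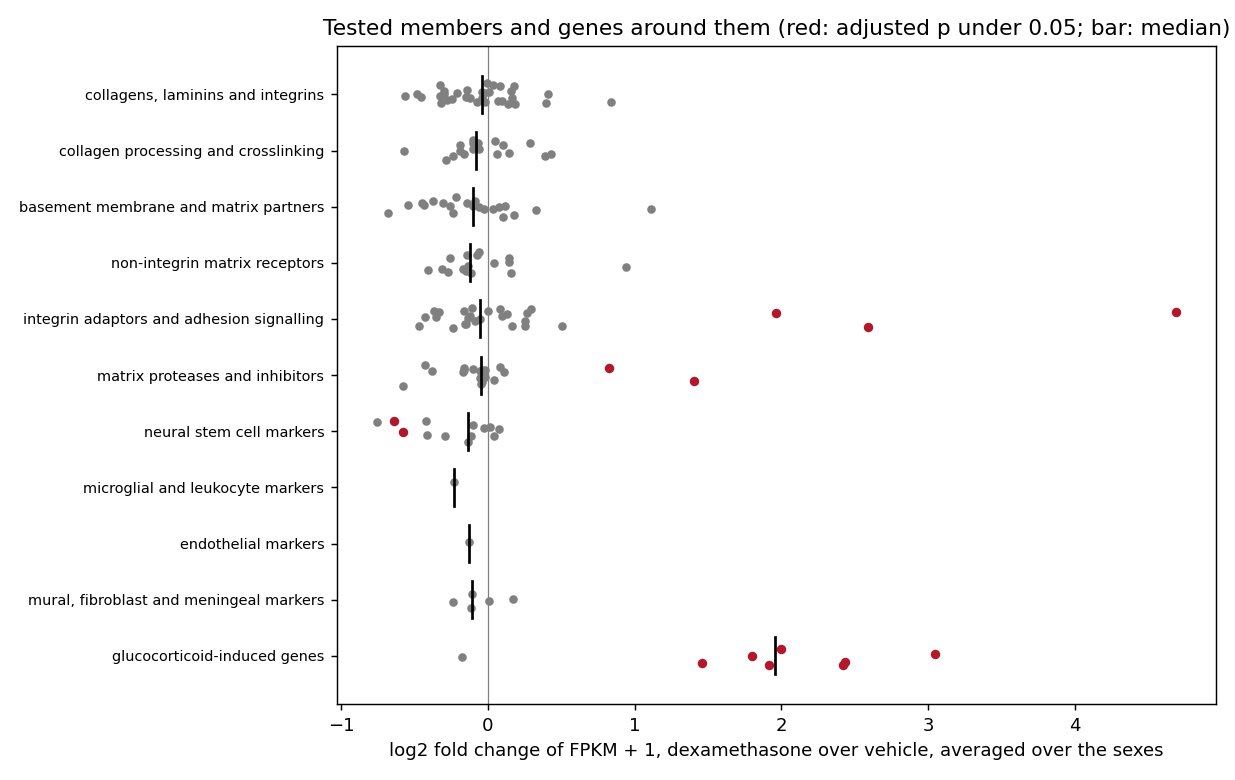
Averaged log2 fold change of FPKM + 1, dexamethasone over vehicle, for the tested members (top row) and for the tested genes of 10 surrounding lists. Each point is a gene, red points have an adjusted p under 0.05 without the replicate block and vertical bars are medians. The members have 0 red points and a median of -0.04, while glucocorticoid-induced genes have 7 red points and a median of 1.96.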

How the data were processed

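RNA of 12 neurosphere libraries, 3 in each of 4 groups, was prepared with a stranded total RNA kit, per the labels' protocols. The authors deposited FPKM per locus, 1 column per library, and the submitters' processing notes name the GRCm38 build with Cuffdiff 2.2.1, Cufflinks 2.2.1 and TopHat2 2.0.9. Annotation release, strand setting and scaling of libraries are not stated in the sources used here. A strand setting or a joined locus can move fragments between overlapping genes, and 8 tested members overlap a protein-coding gene, in every case on the other strand. FPKM carry no counts, so depth is unknown and no counting interval is given. An exact 0 can be a failed estimate. Single items are not reported here.

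From these FPKM, log2(FPKM + 1) was computed for loci averaging 1 FPKM or more and fitted with limma 3.58.1 in R 4.3.3, with 1 mean per sex and treatment, contrasts, empirical Bayes with a mean-variance trend, two-sided tests and Benjamini-Hochberg adjustment over 14931 loci. Every adjusted p is from limma. The contrasts were dexamethasone over vehicle averaged over the sexes, in males and in females, their difference, and female minus male in vehicle. Alternatives were pseudocounts of 0.1 and 0.5, no filter or a mean of at least 5 FPKM, quantile normalization, equal protein-coding sums, protein-coding loci only, robust moderation, each library left out, and a block for the replicate number. The code was tested on simulated data. Values per library were given for members called with or without the block, for the 4 highest and 4 lowest fold changes and for the 3 highest levels per family. Other genes, such as those with the widest spread between libraries, were added after their values were seen. The members, the gene lists and this rule were chosen with earlier results of these data known. Promoters are RefSeq windows on GRCm38.p6. Protein sequences are not used here. Figures were drawn with matplotlib 3.10.9.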

Additional observations from a re-analysis of the deposited data

How the results depend on the processing

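Averaged over the sexes, 0 members were called as reported, 1 without the filter on the mean (Itgb7, log2 fold change 0.16, adjusted p = 0.0303, at a mean of 0.125 FPKM, but 0.0846 when the block was added; 0.774% of all loci were called), and 0 to 1 when each library was left out, the 1 being Col5a3 without female dexamethasone library 2 (1.00, adjusted p = 0.0467; up to 0.284 without another library). With the replicate number as a block the count was 5, and 1 in males and 1 in females. It was 4 to 7 when the block was combined with another pseudocount, filter, scaling, biotype choice or robust moderation, against 1.69% (no filter) to 12.5% (protein-coding loci only) of all loci. The highest member count, 7 (21.2%), was that with protein-coding loci only. It was 1 to 2 when a pair of same-numbered libraries was left out (2.94% to 6.06% of members, against 1.25% to 2.61% of all loci). These combinations were chosen after seeing the data. Col5a3 was called without each of the 6 pairs (adjusted p = 0.0182 to 0.0408), Itga6 only without the female pair 2 (adjusted p = 0.0494) and Itga7 only without the female pair 3 (adjusted p = 0.0489). Correlations of same-numbered deviations were 0.167, 0.0819 and 0.126 in males and 0.0842, 0.141 and 0.164 in females. They were over the chosen threshold of 0.1 in 4 of 6 pairs, and the numbers were left out of the reported fit. That threshold cannot decide whether same-numbered libraries were paired, and 12 of 12 libraries correlated best with their own number. The counts with and without the block are therefore both given, and neither is preferred. The fit without the block keeps any variation shared by same-numbered libraries in its error. With the block the averaged standard error fell from 0.22 to 0.05 for Itga7 and from 0.34 to 0.04 for Col4a5. That of Col26a1 stayed at 0.20. Over all loci the block called 420 higher and 384 lower, and 299 higher and 890 lower with equal protein-coding sums.

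The interaction and the sex difference had 0 calls in all 21 alternatives. Of the 18 named members, 13 kept their sign in every alternative. For the other 5 the averaged log2 fold change changed sign. With libraries left out in turn it ranged from -0.016 to 0.23 for Itgav, from -0.23 to 0.026 for Col16a1, from -0.19 to 0.12 for Col5a2, from -0.23 to 0.15 for Col4a5 and from -0.099 to 0.30 for Lamb1, which was also at -0.0052 with equal protein-coding sums. Others that moved by over 1.5 times with a library left out were Lamc1 (0.029 to 0.26), Itga7 (-0.48 to -0.19), Col12a1 (-0.68 to -0.26), Itga8 (0.27 to 0.51), Itgb1bp1 (0.11 to 0.24), Itgb3bp (0.079 to 0.29) and Itgb1 (-0.078 to -0.0033). Equal protein-coding sums moved the median of all loci to -0.08, against -0.01 as deposited, and that of the members to -0.11, against -0.04. The causes were not tested. With 3 libraries a group and unknown depth, small changes of members under a few FPKM were not detectable.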

Other observations

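Itgb7, a beta chain of lymphocyte integrins that pairs with Itga4 and Itgae, averaged 0.125 FPKM and was not tested at the filter of 1 FPKM. It had 0.173, 0.112 and 0.142 FPKM in male dexamethasone libraries, against 0.0486, 0.0378 and 0 FPKM in male vehicle. In females it had 0.282, 0.239 and 0.182 FPKM with dexamethasone, against 0.0593, 0.0991 and 0.121 FPKM with vehicle. The groups do not overlap in either sex, a pattern held by 2.08% of the tested loci and not counted among loci under the filter. Without the filter the adjusted p of Itgb7 was 0.0303, where 0.774% of all loci were called, and 0.0846 with the replicate block added. All of these levels are low, and depth is unknown.

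With the replicate number as a block, 7 further genes of the matrix, receptor and adaptor lists were called, and 3 neural stem cell markers besides Msi1 and Nr2e1 (Sox2 at -0.42, Nes at -0.29 and Sox9 at -0.76). Sdc4, a heparan sulfate receptor of focal adhesions, had an averaged log2 fold change of 0.94 (adjusted p = 0.00163 with the block and 0.0523 without), and the matricellular gene Ccn2 1.11 (adjusted p = 0.0140 and 0.0566). The adaptor Lims1 had 0.26 (adjusted p = 0.0196 and 0.0523). Lower values were those of Tnc, encoding tenascin-C (-0.68, adjusted p = 0.0126 and 0.375), the fibronectin gene Fn1 (-0.54, adjusted p = 0.0420 and 0.150), the hyaluronan receptor Cd44 (-0.41, adjusted p = 0.00586 and 0.366) and the adhesion protein Zyx (-0.43, adjusted p = 0.0108 and 0.310). Tnc had 51.7, 86.8 and 181 FPKM in male dexamethasone, against 96.9, 144 and 262 FPKM in male vehicle, and 65.7, 69.5 and 82.4 FPKM in female dexamethasone, against 118, 91.6 and 136 FPKM in female vehicle libraries. Its male groups overlap and its female groups do not.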
